A study of Mus musculus with 6 samples.

Results

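The genes described here are those that copy DNA and divide the cell: 22 genes of S phase (DNA replication), 17 genes of G2 and mitosis, and the Myb transcription factors Mybl1 and Mybl2. They were taken by symbol from the 24413 gene rows of the deposited expression table, and all 41 were present. The RNA-seq libraries came from W-EGFP cells, which are interstitial cells from the testes of FLE-EGFP mice at E16.5. In those mice the fluorescent protein EGFP is under an enhancer of Nr5a1 that is active in fetal Leydig cells. SAG activates Smoothened, the membrane protein that passes on the Hedgehog signal, and the comparison asked which transcripts differ when it is applied. One group of 3 libraries received 0.5 µM SAG and the other 3 received the vehicle DMSO. The labels' protocol gives 1 hour of exposure for both groups, and no other source was used to check this time. Both groups started from 10000 cells a sample and carry the same transgene. The column names of both groups also carry the element "siCnt", which the labels do not explain. Nothing says that the replicates came from separate animals or cultures, so the p-values rest on the spread between these samples alone, and that spread may be technical.

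A dividing cell first licenses its replication origins by loading the MCM helicase, then copies its DNA with polymerases, clamps and ligases that draw on a supply of deoxynucleotides. Mitosis follows, driven by cyclin B with Cdk1 and by the Aurora and Polo kinases, and held back by a checkpoint until every chromosome is attached to the spindle. Transcripts of the first set are largely switched on by E2F factors at the entry into S phase, and those of the second by the Myb-MuvB complex and Foxm1 in G2, so that the balance of the sets tracks where cycling cells stand. In bulk RNA, fewer cells of a type and less RNA per cell cannot be told apart.

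The values are a signal, CPM with the authors' scaling factor for each library inside. The number after ± is the SD of the 3 libraries of a group (n = 3). Depth differed between the groups: 18486396 to 25491259 reads in genes with DMSO and 7693274 to 8804281 with SAG. Each of the 41 genes had 51 to 5996 reads in each library, and all passed the filter on low signal. SAG replicate 3 stood apart from the rest: Rn45s, a ribosomal RNA gene, took 1.67% of its reads and 0.326% to 0.360% of those in the other libraries. Its signal for Hsd3b1, a steroidogenic enzyme, was 30.8, against 3.74 and 2.01 in SAG replicates 1 and 2. Of the interstitial and fetal Leydig markers, Nr5a1 was at 117 to 124 with DMSO and 98.8 to 108 with SAG and EGFP was present in all 6 libraries. The steroidogenic genes Star and Cyp11a1 were at 23.9 to 25 and 6.87 to 8.63 with DMSO and at 11.2 to 50.7 and 5.61 to 33.9 with SAG, the highest values being those of SAG replicate 3. The Leydig hormone gene Insl3 and the enzyme gene Cyp17a1 were at or near 0. The summed signal of the 15 interstitial and fetal Leydig markers ran from 779.7 to 801.4 with DMSO and from 1374.5 to 1594 with SAG. Of the 13 tested, 7 were called higher and 0 lower, beside 12.9% and 16.6% of all tested genes. All 6 myoid and smooth muscle markers were called lower, and their summed signal ran from 20396 to 21313 with DMSO and from 12979.5 to 14196 with SAG. Sums for the 7 Sertoli markers were 58.9 to 62.4 and 46.5 to 47.8, with 1 of 5 tested called lower and Amh at 0.0828 to 1.54. The 9 germ cell markers summed to 2.17 to 2.71 with DMSO and 2.97 to 4.61 with SAG, with Pou5f1, Nanos2, Tex101 and Mael at 0 in every library. Endothelial sums were 31.8 to 38.1 and 35.2 to 50.2, macrophage sums 2.19 to 3.33 and 1.17 to 3.62, and erythroid sums at most 0.508. Whether the signal of these other markers came from other cell types was not tested, nor was the part of such cells in the results that follow.

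With SAG, few replication and mitosis genes passed the test. Mcm5 and Mcm3, which encode subunits of the replicative helicase, rose 1.32-fold and 1.29-fold, and the ribonucleotide reductase genes Rrm2 and Rrm1 fell, Rrm2 by more than 2-fold. The checkpoint kinase gene Bub1, the kinetochore motor gene Cenpe and the transcription factor gene Mybl1 also fell. In all, 2 of 22 S-phase genes were called higher and 2 lower, and 0 of 17 G2-M genes were called higher and 2 lower (limma, adjusted p under 0.05 by the method of Benjamini and Hochberg (BH) over 12550 tested genes). Over all tested genes 12.9% were called higher and 16.6% lower, so neither phase held a larger share of calls than the genes at large. With each library scaled by its total in place of the authors' factor, 2477 genes were called higher and 1259 lower, against 1625 and 2084. The median log2 fold change was -0.0034 for the S-phase genes, -0.23 for the G2-M genes and -0.03 over all tested genes. No test was made of either phase as a list. The call for Cenpe and those for the 2 MCM genes were lost whichever DMSO library was left out, and in other settings given with their values. Leaving out DMSO replicate 1, 2 or 3 also lowered the calls over all genes, to 930, 969 and 901 higher and 1093, 1136 and 1086 lower. The calls for Rrm2, Rrm1, Bub1 and Mybl1 held in each of the 19 other settings tried.

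**Figure D1:**
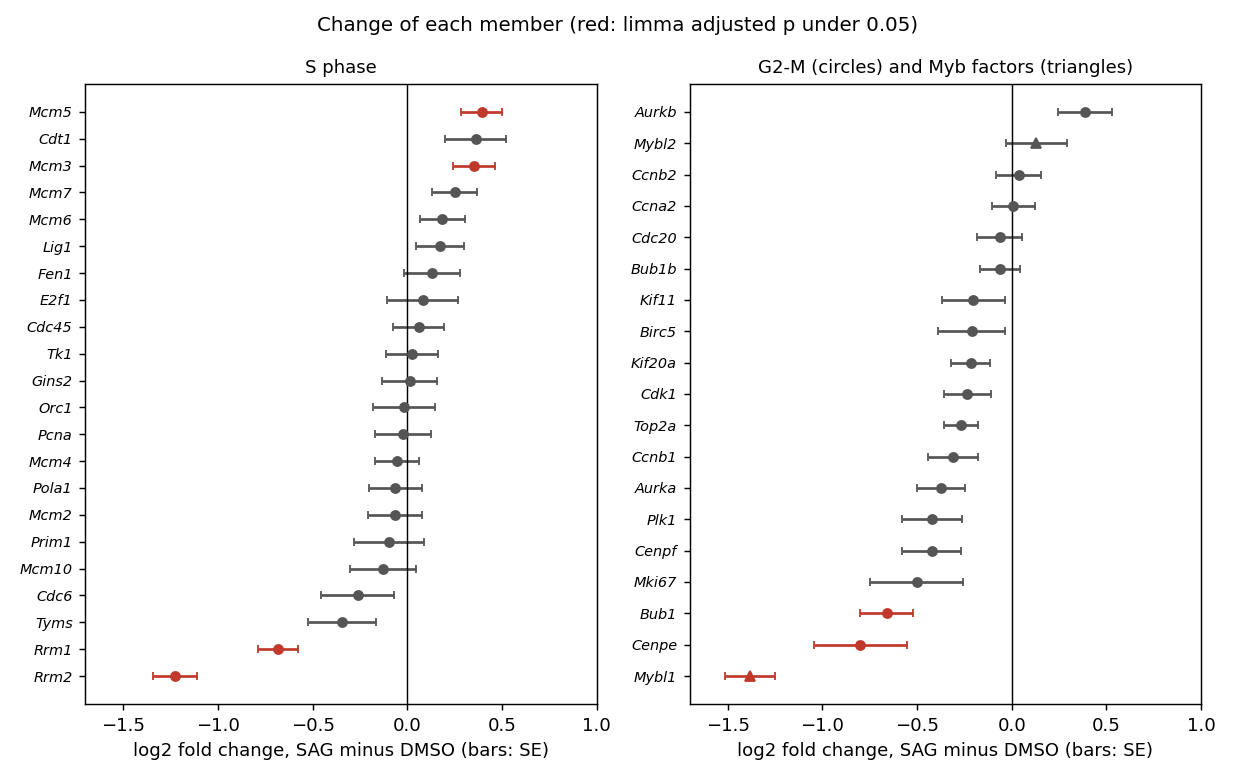
Log2 fold change of signal, SAG minus DMSO, with its standard error for each of the 41 genes (x axis, log2(signal + 1) scale), ordered by size within each phase on the y axis, with called genes in red and the Myb factors as triangles. Rrm2 at -1.23 and Mybl1 at -1.38 lie farthest to the left, and Mcm5 at 0.39 is the called gene farthest to the right.

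Promoters were searched for the elements through which E2F and the MuvB complex act. Those of 3 genes of each phase are shown because these had the smallest p-values of their phase among genes with an entry in the promoter table. Each line gives the 200 bases just upstream of the RefSeq transcription start on GRCm38.p6, written 5′ to 3′ on the gene's own strand. Capitals mark E2F elements (TTTGGCGC, TTTCGCGC, TTCCCGCC or TTGGCGGG), the cell cycle genes homology region or CHR (TTTGAA) and the CCAAT box, on either strand.
Rrm2, chr12:24708054-24708253, plus strand: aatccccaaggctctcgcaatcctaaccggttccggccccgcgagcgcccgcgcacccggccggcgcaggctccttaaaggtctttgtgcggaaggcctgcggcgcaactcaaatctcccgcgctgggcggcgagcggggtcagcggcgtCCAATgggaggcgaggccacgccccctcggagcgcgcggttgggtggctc
Rrm1, chr7:102441495-102441694, plus strand: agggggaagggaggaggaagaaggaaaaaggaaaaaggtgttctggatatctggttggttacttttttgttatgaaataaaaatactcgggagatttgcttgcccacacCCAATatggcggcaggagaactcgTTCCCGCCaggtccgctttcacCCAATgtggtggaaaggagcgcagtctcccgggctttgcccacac
Mcm5, chr8:75109309-75109508, plus strand: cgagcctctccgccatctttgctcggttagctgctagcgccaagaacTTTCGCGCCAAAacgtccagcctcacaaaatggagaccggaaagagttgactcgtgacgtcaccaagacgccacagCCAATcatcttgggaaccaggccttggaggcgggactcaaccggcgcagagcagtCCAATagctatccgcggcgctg
Bub1, chr2:127831860-127832059, minus strand: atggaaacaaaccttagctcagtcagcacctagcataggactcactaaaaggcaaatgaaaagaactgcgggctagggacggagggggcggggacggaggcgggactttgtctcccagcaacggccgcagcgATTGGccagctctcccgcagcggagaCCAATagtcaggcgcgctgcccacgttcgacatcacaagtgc
Cenpe, chr3:135212363-135212562, plus strand: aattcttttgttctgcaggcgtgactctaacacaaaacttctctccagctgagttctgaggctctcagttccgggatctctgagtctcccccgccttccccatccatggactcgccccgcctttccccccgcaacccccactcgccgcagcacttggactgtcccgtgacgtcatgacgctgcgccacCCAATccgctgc
Top2a, chr11:99024190-99024389, minus strand: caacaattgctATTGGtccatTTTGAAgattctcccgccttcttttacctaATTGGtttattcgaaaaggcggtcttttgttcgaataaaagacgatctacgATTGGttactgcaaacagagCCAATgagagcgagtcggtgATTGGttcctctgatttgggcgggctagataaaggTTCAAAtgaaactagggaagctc
The Mcm5 promoter held a pair of overlapping E2F matches on opposite strands, 153 and 149 bases upstream of the start, and that of Rrm1 held 1 at 67 bases. The Rrm2, Bub1 and Cenpe promoters held CCAAT boxes and none of the E2F or CHR letters in this window. Top2a, which encodes the topoisomerase that untangles sister chromosomes, had 2 CHR matches and 6 CCAAT boxes within 250 bases.

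Over the 250 bases upstream of the start, an E2F element was found in 7 of 20 S-phase genes (35%) and 1 of 14 G2-M genes (7.14%), and in 3.17% of all 32851 RefSeq promoters. A CHR was found in 3 of 20 S-phase genes (15%), 6 of 14 G2-M genes (42.9%) and 16% of all promoters. CCAAT boxes were in 13 of 20 (65%), 13 of 14 (92.9%) and 33.8%. Promoters were in the table for 35 of the 41 genes, Mcm4, Gins2, Ccna2, Aurkb, Kif20a and Mybl1 being the others. Only the first entry of a gene was used for these shares, and Mcm7, Fen1 and Lig1 had more than 1. The share over all promoters counts every entry, so the 2 are not counted alike. Matches were sought on both strands, and TTGGCGGG can overlap the reverse complement of TTCCCGCC. A match is a description of letters and not a binding site.

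**Figure D2:**
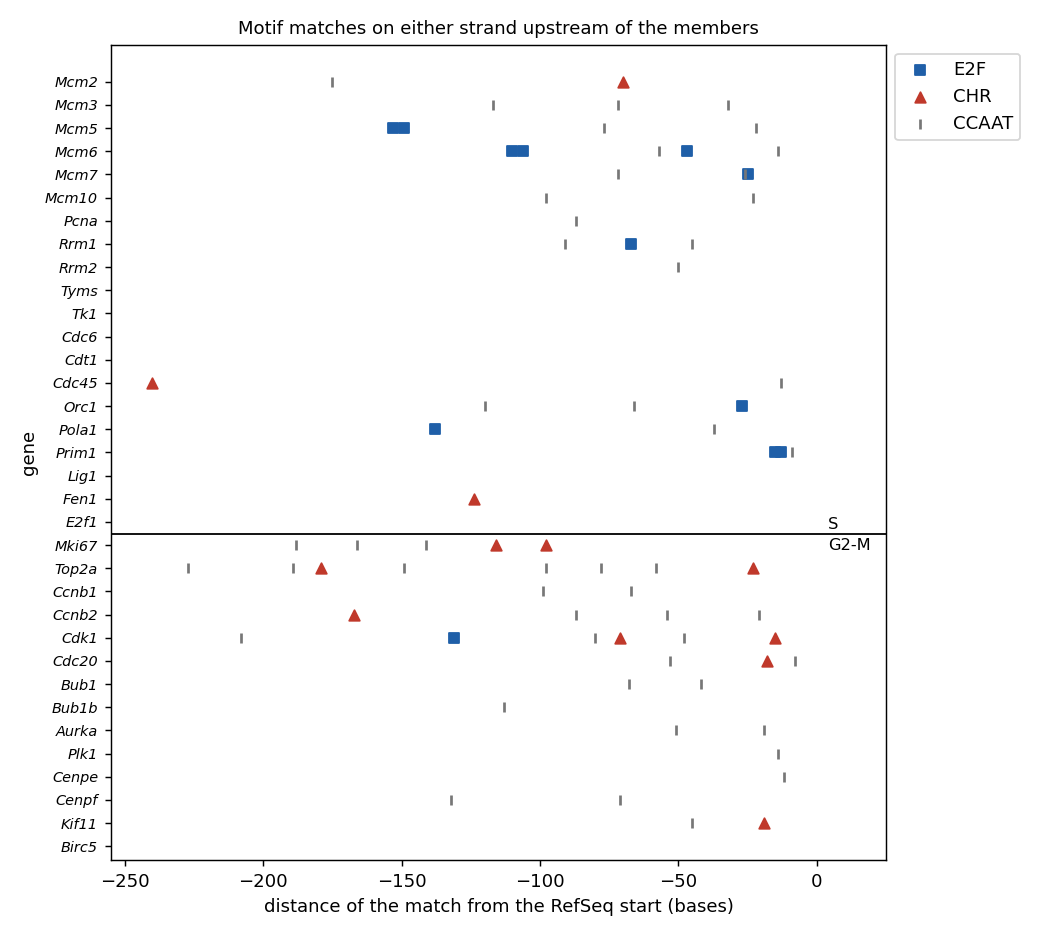
Position of each E2F, CHR and CCAAT match (x axis, distance from the RefSeq transcription start in bases, negative upstream) in the promoters of the S-phase and G2-M genes (y axis, 1 line a gene). E2F matches lie in 7 S-phase genes and 1 G2-M gene, and CHR matches in 3 and 6.

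Deoxynucleotide supply held the largest decreases among the S-phase genes, with 2 of its 4 genes called lower (50%, beside 16.6% of all tested genes). Its median log2 fold change was -0.51. Rrm2, at 24708241 to 24714146 of chromosome 12 (plus strand), encodes the small subunit of ribonucleotide reductase, which makes deoxynucleotides and is the subunit that varies with the cell cycle. Its signal was 71.6, 74.0 and 66.3 in DMSO replicates 1 to 3 and 33.0, 26.7 and 29.4 in SAG replicates 1 to 3. Every SAG library was far below every DMSO library. Rrm2 fell 2.38-fold, from 70.7 ± 3.95 to 29.7 ± 3.14 (log2 fold change -1.23, SE 0.12; limma BH-adjusted p = 0.000123). Rrm1, at 102441695 to 102469771 of chromosome 7 (plus strand), encodes the large catalytic subunit of the same enzyme. Its signal was 248, 258 and 252 with DMSO and 166, 138 and 168 with SAG. The groups did not overlap, and Rrm1 fell 1.6-fold (log2 fold change -0.68, SE 0.10; limma BH-adjusted p = 0.0015). Tyms, thymidylate synthase, was not called at 23.4 ± 1.31 and 18.6 ± 4.50, with the lowest value in SAG replicate 3. Tk1, the thymidine kinase of the salvage route, was at 21.4 ± 0.269 and 21.9 ± 3.22.

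Of the 6 genes of the MCM2-7 helicase, the hexamer that opens the double helix, 2 were called higher (33.3%) and 0 lower. Beside this, 12.9% of all tested genes were called higher. The median log2 fold change of the 6 was 0.22. Mcm5 (chromosome 8, 75109569 to 75128439, plus strand) was at a signal of 46.4, 42.1 and 42.2 with DMSO and 54.7, 62.1 and 55.7 with SAG. No SAG library overlapped a DMSO library, and Mcm5 rose 1.32-fold (log2 fold change 0.39, SE 0.11; limma BH-adjusted p = 0.0234). Mcm3 (chromosome 1, 20802968 to 20820312, minus strand) was at 44.1, 45.6 and 41.3 with DMSO and 51.0, 57.1 and 60.5 with SAG. Here too the groups stood apart, and Mcm3 rose 1.29-fold (log2 fold change 0.35, SE 0.11; limma BH-adjusted p = 0.0391). Among the other subunits, Mcm6 had a signal of 78.5, 75.7 and 73.7 with DMSO and 88.9, 74.9 and 97.1 with SAG, with SAG replicate 2 inside the DMSO range. Mcm7 was at 50.2, 54.7 and 57.9 with DMSO and 63.4, 58.5 and 72.8 with SAG, so all SAG libraries were higher but the difference was not called (limma BH-adjusted p = 0.138, and 0.029 when scaled by library total). Mcm2 was at 58.8, 53.2 and 52.7 with DMSO and 54.9, 61.4 and 42.4 with SAG, and both Mcm2 and Mcm4 overlapped between the groups, so the 6 subunits of 1 complex did not all pass the test. Leaving out DMSO replicate 1, 2 or 3 or SAG replicate 2 gave limma BH-adjusted p of 0.0633, 0.108, 0.11 and 0.052 for Mcm5 and 0.124, 0.101, 0.164 and 0.0702 for Mcm3. Mcm3 also lost its call with limma without trend (0.0589) and with length and GC trends removed (0.0812).

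Origin licensing and firing and synthesis at the fork gave no calls, beside 12.9% of all tested genes called higher and 16.6% lower. The 6 licensing and firing genes were Orc1, Cdc6 and Cdt1, which load the helicase, and Mcm10, Cdc45 and Gins2, which start it. Their median log2 fold change was -0.0034, and their groups overlapped throughout, as in 6530 of the 12550 tested genes. Cdt1 was at 14.2, 13.6 and 12.4 with DMSO and 19.6, 19.4 and 14.0 with SAG, and Cdc6 at 8.57, 8.55 and 8.80 with DMSO and 5.93, 6.04 and 9.63 with SAG. In both genes SAG replicate 3 lay with or next to the DMSO libraries while SAG replicates 1 and 2 lay together. Without SAG replicate 3, Cdt1 was called higher (log2 fold change 0.51; limma BH-adjusted p = 0.00415) and Cdc6 lower (-0.46; 0.0323). At the fork, the sliding clamp gene Pcna was at 66.1, 64.8 and 67.5 with DMSO and 74.3, 72.7 and 51.1 with SAG. Its SAG libraries lay on both sides of the DMSO range. Pola1 and Prim1 (the primase complex), Lig1 (DNA ligase) and Fen1 (flap endonuclease) had log2 fold changes from -0.10 to 0.17. E2f1, the transcription factor of S-phase entry, was at 27.4 ± 1.09 and 29.9 ± 9.31.

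**Figure D3:**
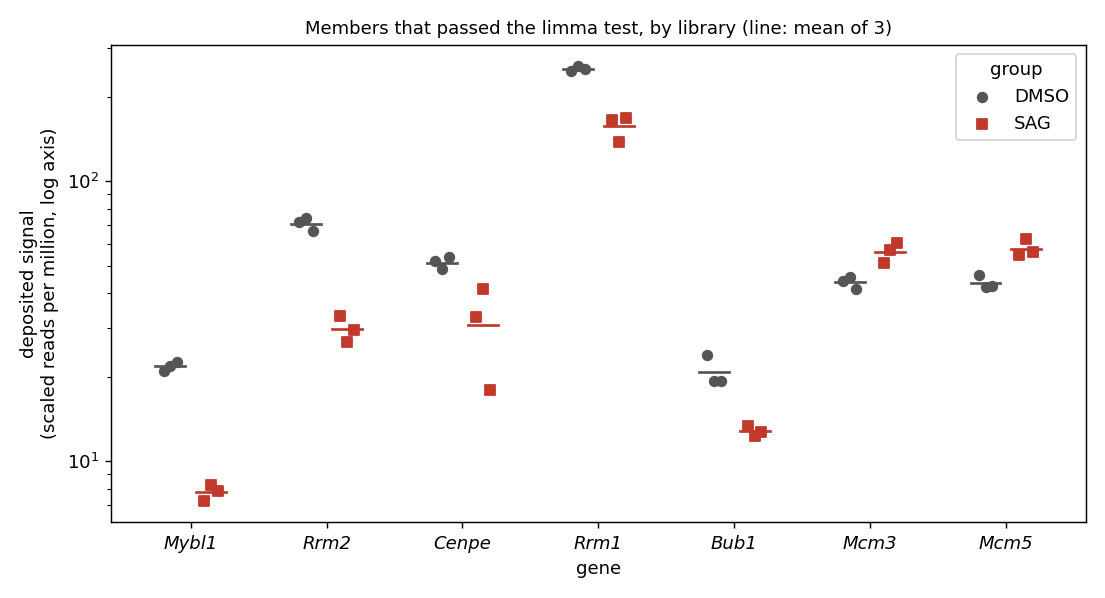
Signal in each library (y axis, scaled CPM on a log axis) for the 7 called genes, with each library as a point coloured by group and a line at the mean of 3 libraries. Rrm2, Rrm1, Bub1, Cenpe and Mybl1 lie lower in all 3 SAG libraries and Mcm5 and Mcm3 higher.

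Among the mitotic kinases and checkpoint genes, 1 of 6 was called lower and 0 higher, with a median log2 fold change of -0.29. That share, 16.7%, was close to the 16.6% of all tested genes called lower. Bub1, at 127801122 to 127831865 of chromosome 2 (minus strand), encodes a kinase of the spindle assembly checkpoint that sits on the kinetochore. Its signal was 24, 19.4 and 19.3 with DMSO and 13.4, 12.3 and 12.7 with SAG. All SAG libraries were below all DMSO libraries, and Bub1 fell 1.63-fold (log2 fold change -0.66, SE 0.14; limma BH-adjusted p = 0.00717). Its partner Bub1b was at 41.1 ± 0.571 and 39.3 ± 2.08, with overlapping groups. Neither Aurora kinase was called. Aurka, the spindle pole kinase, was at 30.9 ± 1.2 with DMSO and 23.7 ± 2.67 with SAG (log2 fold change -0.37; limma BH-adjusted p = 0.0514). It was called lower with a mean signal of at least 5 (0.047), with length and GC trends removed (0.0274) and without SAG replicate 3 (0.00556). Aurkb, the centromere kinase of the chromosomal passenger complex, was at 17.8 ± 2.23 and 23.5 ± 2.13 (log2 fold change 0.39; limma BH-adjusted p = 0.0635), and it is named here after its values were seen because its SAG libraries all lay above DMSO. It was called higher by edgeR (adjusted p = 0.0481) and DESeq2 (0.0358) on the recovered reads and with each library scaled by its total (limma, 0.019). Plk1, the Polo kinase, was at 46.9 ± 2.19 and 35.4 ± 7.92 and was called lower with length and GC trends removed (limma, 0.0238) and without SAG replicate 2 (0.0262). Birc5, survivin, a passenger subunit that acts with Aurkb, was at 27.6 ± 2.0 and 24.2 ± 6.45.

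Centromere proteins and spindle motors had 1 of 4 genes called lower (25%, beside 16.6% of all tested genes), with a median log2 fold change of -0.32. Cenpe, at 135212537 to 135273611 of chromosome 3 (plus strand), encodes a kinesin that brings chromosomes to the spindle equator. Its signal was 51.8, 48.5 and 53.6 with DMSO and 32.7, 41.4 and 18 with SAG. The groups did not overlap, but SAG replicate 3 was lower than SAG replicate 2 by over 2-fold. Cenpe fell 1.67-fold (log2 fold change -0.80, SE 0.25; limma BH-adjusted p = 0.0371). Without SAG replicate 3 the log2 fold change was -0.47 (adjusted p = 0.000814 in the same limma test), and without DMSO replicate 1, 2 or 3 or SAG replicate 1 the call was lost (0.11, 0.0878, 0.117 and 0.0635). It was also lost with no filter on low signal (0.0701), with scaling by library total (0.0887), with limma without trend (0.0633) and with length and GC trends removed (0.0837). Kif20a, a motor of the central spindle, was at 80.7, 91.4 and 81.2 with DMSO and 75.8, 72.5 and 69.1 with SAG, all lower but not called (limma BH-adjusted p = 0.139). Cenpf, a kinetochore protein, was at 37.1 ± 0.809 and 27.8 ± 5.60 and was called lower with thinned DMSO reads (limma, 0.047). Kif11, which pushes the spindle poles apart, was at 31.5 ± 0.571 and 27.8 ± 6.33.

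Neither Mki67 nor Top2a, both widely used as proliferation markers, was called. Mki67, which coats mitotic chromosomes, was at 134, 145 and 136 with DMSO and 114, 135 and 59.7 with SAG. SAG replicate 2 lay within the DMSO range while SAG replicate 3 lay far below it (limma BH-adjusted p = 0.154). Top2a was at 132, 130 and 127 with DMSO and 112, 107 and 104 with SAG, lower in all SAG libraries (log2 fold change -0.27, SE 0.09; limma BH-adjusted p = 0.0512). Top2a was called lower with no filter on low signal (0.0426), with a mean signal of at least 5 (0.0476) and without SAG replicate 3 (0.00932). In the 5 G2-M genes with the longest exons, Cenpf (11.1 kb), Mki67 (10.1 kb), Cenpe (7.91 kb), Top2a (5.22 kb) and Kif11 (4.82 kb), SAG replicate 3 lay below the mean of SAG replicates 1 and 2 by a median of -0.59 on the log2 scale, and in the other 12 it lay at 0.07. The ranges overlapped, from -1.04 (Mki67) to -0.07 (Top2a) in the 5 and from -0.53 (Plk1) to 0.60 (Birc5) in the other 12. This division by length was made after the values were seen. The genes outside the G2-M set with exons at least as long as those of Kif11 went both ways by the same measure: -0.40 for Mcm10 (4.95 kb), 0.02 for Mybl1 (4.98 kb) and 0.27 for Pola1 (5.35 kb).

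Cyclins, Cdk1 and Cdc20 gave 0 calls among 5 genes, beside 12.9% of all tested genes called higher and 16.6% lower. Their median log2 fold change was -0.06. Ccna2, cyclin A2, which acts in both S phase and G2, was at 65.9, 69.6 and 62.5 with DMSO and 61.8, 63.0 and 75.0 with SAG. Its SAG libraries lay on both sides of the DMSO libraries. Ccnb1, cyclin B1, was at 44.7 ± 3.03 and 36.1 ± 5.26 without overlap, and Ccnb2, cyclin B2, at 23.8 ± 1.83 and 24.4 ± 0.744. Cdk1, their kinase partner, was at 54.6 ± 2.35 and 46.5 ± 6.52, and Cdc20, which activates the ligase that ends mitosis, at 62.2 ± 4.59 and 59.7 ± 6.93.

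**Figure D4:**
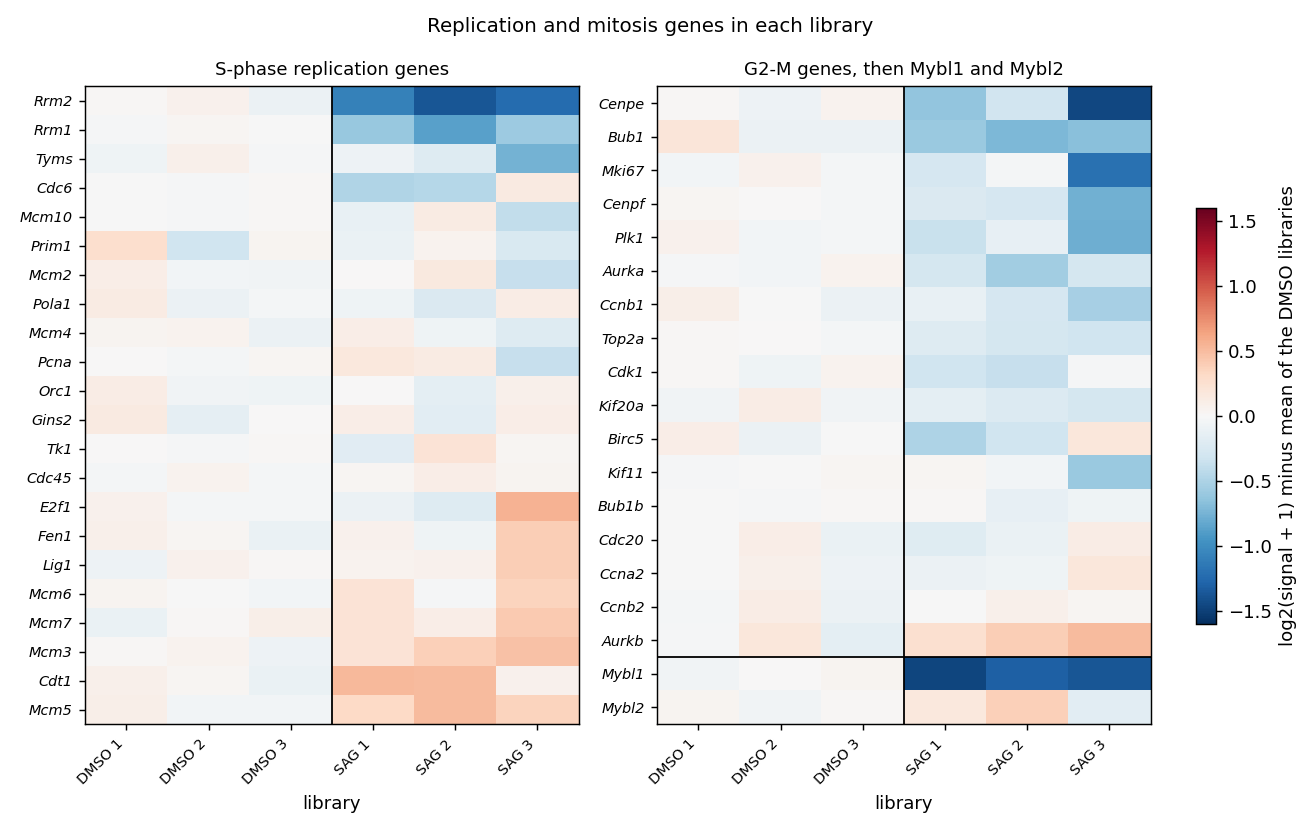
Deviation of each gene from its DMSO mean on the log2(signal + 1) scale (colour) for the 41 genes (y axis, by phase and then by change) in the 6 libraries (x axis). Rrm2, Rrm1 and Mybl1 are low in all SAG libraries, and Mki67 and Cenpe are lowest in SAG replicate 3.

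Of the 22 S-phase genes 11 had a log2 fold change above 0 and 11 below, and of the 17 G2-M genes 3 lay above and 14 below, against 5915 above and 6635 below among the 12550 tested genes. With each library scaled by its total, 17 S-phase genes lay above 0 and 5 below, and 5 G2-M genes above and 12 below. Groups did not overlap in 3 S-phase genes that were higher (Mcm3, Mcm5 and Mcm7) and 3 that were lower (Rrm1, Rrm2 and Tyms). Among the G2-M genes 1 was higher without overlap (Aurkb) and 8 lower (Bub1, Cenpe, Top2a, Aurka, Cenpf, Plk1, Ccnb1 and Kif20a). Over all tested genes 21.2% were higher and 26.8% lower without overlap. The median deviation of the G2-M genes from their DMSO means was -0.21, -0.22 and -0.28 in SAG replicates 1 to 3, and that of the S-phase genes 0.02, 0.02 and 0.07. The mean log2 signal of the S-phase genes minus that of the G2-M genes was -0.62, -0.67 and -0.63 in the DMSO libraries and -0.46, -0.51 and -0.32 in the SAG libraries. Each SAG library was thus above each DMSO library in this difference, which is a description of these genes and was not tested. Without SAG replicate 3, 3 S-phase genes were called higher (Mcm3, Mcm5 and Cdt1) and 3 lower (Rrm1, Rrm2 and Cdc6), and 0 G2-M genes higher and 6 lower (Bub1, Cenpe, Top2a, Cdk1, Aurka and Birc5). In that fit 19.7% of all genes were called higher and 27% lower, and the medians were 0.01 for the S-phase and -0.20 for the G2-M genes.

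**Figure D5:**
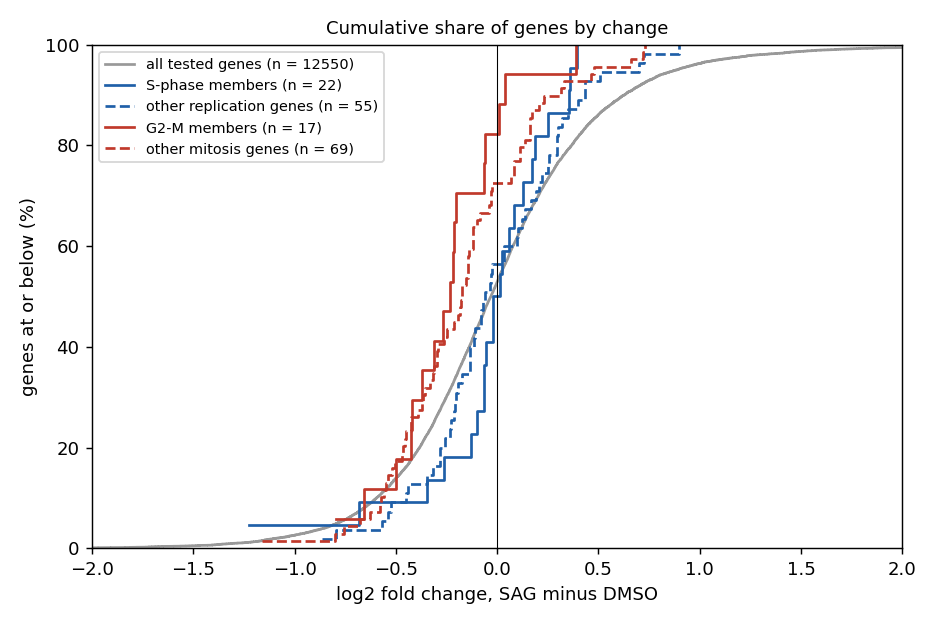
Cumulative share of genes (y axis) by log2 fold change, SAG minus DMSO (x axis), for the 22 S-phase genes, the 17 G2-M genes, 55 other replication and 69 other mitosis genes (dashed) and all 12550 tested genes. The solid G2-M curve lies to the left of the S-phase curve over most of its range, with a median of -0.23 against -0.0034 for the S-phase genes and -0.03 over all.

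Of the Myb factors, 1 was called lower and the other was not called, beside 16.6% of all tested genes called lower. Mybl1 (A-Myb), at 9667415 to 9700209 of chromosome 1 (minus strand), is a transcription factor best known in male germ cells, where it drives meiotic genes. Its signal was 21, 22 and 22.6 with DMSO and 7.25, 8.26 and 7.83 with SAG. The groups lay far apart with little spread in either. Mybl1 fell 2.81-fold, from 21.9 ± 0.815 to 7.78 ± 0.509 (log2 fold change -1.38, SE 0.13; limma BH-adjusted p = 0.000123). The 9 germ cell markers summed to 2.17 to 2.71 with DMSO and 2.97 to 4.61 with SAG, most of it from Sycp3 (1.03 to 1.76 in any library) and Dnd1 (0.647 to 2.64), and Ddx4 and Dazl had at most 0.231 and 0.220. Mybl2 (B-Myb), which joins the MuvB complex to activate G2-M genes, was at 16.1, 14.9 and 15.7 with DMSO and 17.7, 20.6 and 13.7 with SAG. Its groups overlapped and it was not called (log2 fold change 0.13; limma BH-adjusted p = 0.575).

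Per kb of exon, which allows genes to be compared, Rrm1 had the highest DMSO level of the 41 at 63.2 signal per kb, followed by Pcna (43.6), Cdc20 (34.7) and Rrm2 (32.2), and Mcm10 had the lowest at 1.80. With SAG the level of Rrm1 was 39.4 per kb and that of Pcna 43.5, so Pcna then lay first, and Rrm2 was at 13.5 per kb, below Cdc20 (33.3) and Top2a (20.6). Mybl1 and Mybl2 had similar DMSO levels, 4.39 and 4.26 per kb, and with SAG lay at 1.56 and 4.75.

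Of 55 other replication genes 6 were called higher and 7 lower, with a median log2 fold change of -0.06. These shares, 10.9% and 12.7%, were below those over all tested genes (12.9% and 16.6%). The subunit genes of the leading-strand and lagging-strand polymerases Pole2 and Pold1 rose 2.04-fold and 1.69-fold, Pole2 from a signal of 4.86 ± 0.671 to 9.94 ± 1.52 and Pold1 from 22.3 ± 1.38 to 37.6 ± 2.16. Timeless, a fork protection gene, rose 1.67-fold and Mcmbp, which binds MCM proteins, 1.36-fold. Ccne1, cyclin E1, which pairs with Cdk2 at the entry into S phase, fell 1.80-fold, from 20.8 ± 1.68 to 11.5 ± 1.23. The origin recognition genes Orc4 and Orc3 fell 1.85-fold and 1.47-fold, and Dbf4, the activator of the Cdc7 kinase, 1.51-fold. Leaving out DMSO replicate 1 or 2 ended the calls of Mcmbp and Dbf4, and DMSO replicate 3 that of Mcmbp (limma BH-adjusted p at most 0.0653 and 0.062).

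Of 69 other mitosis genes 3 were called higher (4.35%) and 16 lower (23.2%), beside 12.9% and 16.6% of all tested genes, with a median log2 fold change of -0.18. Lmnb1, lamin B1 of the nuclear envelope, rose 1.67-fold, from 91.0 ± 3.38 to 152 ± 10.8, and the phosphatase gene Cdc25b and the kinetochore gene Spc24 rose 1.70-fold and 1.65-fold. Anln, anillin of the contractile ring, fell 2.25-fold, from 176 ± 2.92 to 78.3 ± 5.73. Cks2, a Cdk-binding subunit, fell 1.71-fold, Ckap2, a spindle protein, 1.63-fold and Smc4, a condensin subunit, 1.46-fold. The call of Spc24 was lost without DMSO replicate 2 or 3 (limma BH-adjusted p at most 0.0594).

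Of 17 tested E2F, Rb and DREAM regulators 2 were called higher (11.8%) and 5 lower (29.4%), beside 12.9% and 16.6% of all tested genes, with a median log2 fold change of -0.18. The MuvB subunit genes went both ways, Lin37 rising 1.55-fold and Lin52 1.49-fold while Lin9 fell 1.62-fold. Rb1, the retinoblastoma protein that holds E2F in check, fell 1.49-fold, the E2F partner gene Tfdp1 1.28-fold and E2f3, an activating E2F, 1.31-fold. Each of these 6 lost its call without DMSO replicate 2 and without DMSO replicate 3. Lin52, Lin9, Tfdp1 and E2f3 lost it also without DMSO replicate 1, Lin52, Tfdp1 and E2f3 without SAG replicate 1, and Lin37, Lin52 and E2f3 without SAG replicate 2. With each library scaled by its total, Rb1, Tfdp1, Lin9 and E2f3 lost their calls (limma BH-adjusted p = 0.0698, 0.143, 0.0762 and 0.138). Lin37 and Lin52, which rose, kept theirs under that scaling. Over all settings the highest limma BH-adjusted p was 0.109 for Lin37, 0.153 for Lin52, 0.122 for Lin9, 0.0927 for Rb1 and 0.143 for Tfdp1 and E2f3. Of 26 replication-dependent histone genes listed, 2 had enough signal to be tested, and Hist1h2bc fell 1.76-fold, from 17.6 ± 0.771 to 10 ± 3.43. Its call was lost without DMSO replicate 1, 2 or 3 (limma BH-adjusted p at most 0.0891) and with scaling by library total (0.0619).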

How the data were processed

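Total RNA of 10000 cells a sample went into directional NEBNext Ultra II libraries, per the labels' protocols. The submitters' processing notes name featureCounts 2.0.0, STAR, Trim Galore 0.6.4, edgeR 2.2.1 and build GRCm38. Which annotation, strand setting and filters were used is not given in the sources used here. Deposited by the authors, the table holds a normalized signal per gene, 1 column a library. Within a tolerance of 0.01, 100% of values in each column were whole multiples of 1 step, so whole reads could be recovered, and TMM factors from those reads equalled the authors' scaling. The 92 spike-in rows, at most 0.0157% of a library, were left out.

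The test was limma 3.58.1 (eBayes with trend) in R 4.3.3 on log2(signal + 1), with no covariate, for the 12550 genes whose mean signal was 1 or more. A call needed an adjusted p under 0.05 (Benjamini-Hochberg, BH). Log2 fold changes, SAG minus DMSO, are on that scale and understate the change of low genes, whereas folds are ratios of mean signal. The step was also run on simulated counts that gave every gene and library the same dispersion. Because SAG replicate 3 stood apart in the data, that run cannot vouch for the calls here. Alternatives were other pseudocounts, filters, scalings, limma settings and thresholds, a replicate block, thinned DMSO reads, DESeq2 1.42.0 and edgeR 4.0.16 (quasi-likelihood) on recovered reads, each library left out in turn and, added after the data were seen, removal of length and GC trends. Coordinates and exon lengths came from GENCODE on GRCm38, and promoters from RefSeq on GRCm38.p6. Called genes and, in each phase, the 4 others with the highest mean signal are given in every library, together with both Myb factors. Other lists are given by counts and up to 4 called genes a direction with the smallest p. The genes and lists were chosen with earlier results of these data known. Other genes were named after their values were seen.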

Additional observations from a re-analysis of the deposited data

Results flagged for a closer look

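Reads on the synthetic spike-in RNAs, which enter no comparison, were present in the SAG libraries alone: 111 in SAG replicate 1, 54 in SAG replicate 2 and 1205 in SAG replicate 3, against 0 in each of the 3 DMSO libraries. They made up at most 0.0157% of a library's reads. The SAG libraries were also those of lower depth (7693274 to 8804281 reads in genes, against 18486396 to 25491259 with DMSO). Treatment thus coincided with both differences between libraries and cannot be told apart from them, and their part in the results was not tested.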

How the results depend on the processing

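No member changed from called higher to called lower or the reverse under any alternative. With all genes scaled by library total, 2477 genes were called higher and 1259 lower, the S-phase median was 0.13 and the G2-M median -0.10, and 1 G2-M gene was called higher and 1 lower. That scaling moved the median of all genes from -0.03 to 0.10, and relative to it the S-phase median was 0.03 under both scalings and the G2-M median -0.20. A mean signal of at least 5 gave 4 lower G2-M genes, beside 1962 lower among all 10553 genes tested in that fit. Limma without trend gave 1 lower G2-M and 1 higher S-phase gene, beside 1837 lower and 1616 higher among all 12550. At an adjusted p under 0.01, 794 genes were higher and 1043 lower, with 0 higher S-phase and 1 lower G2-M gene. On the recovered reads edgeR called 1877 genes higher and 1881 lower and DESeq2 2138 and 1965. With edgeR 1 G2-M gene was higher and the S-phase median was 0.035, and with DESeq2 1 and 0.044. With length and GC trends removed 1 S-phase gene was higher, beside 1549 of all 12083 genes tested in that fit, and the G2-M median was -0.18. With Mybl1 and Mybl2 counted among the G2-M genes 3 were lower. The replicate block gave 1 higher S-phase gene (Mcm3 lost its call, limma BH-adjusted p = 0.0716), beside 1549 higher among all 12550. Same-numbered libraries gave correlations of -0.023, 0.033 and -0.00017 in their deviations, and differently numbered ones -0.033 to 0.037. With 3 libraries a group, these values cannot tell whether the numbers pair the samples. Leaving out each library in turn gave 901 to 2463 higher and 1086 to 3373 lower genes, 0 to 3 higher and 2 to 3 lower S-phase genes, 1 to 6 lower G2-M genes, S-phase medians of -0.033 to 0.041 and G2-M medians of -0.30 to -0.20. The highest counts came without SAG replicate 3. The cause of these changes was not tested. SAG depth, 2.67 times lower than that of DMSO on average, limits the precision of low genes such as Orc1.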

Other observations

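Further genes of the deoxynucleotide pool were looked at after the values of Rrm1 and Rrm2 had been seen. Samhd1, which encodes the enzyme that breaks down deoxynucleotides, fell 1.78-fold, from a signal of 67.9 ± 1.59 with DMSO to 38.1 ± 1.69 with SAG (SD, n = 3; log2 fold change -0.82, SE 0.10; limma BH-adjusted p = 0.000523). Rrm2b, the p53-regulated small subunit that serves outside S phase, was at 13.5 ± 1.77 and 10 ± 0.328 (limma BH-adjusted p = 0.0745), and the salvage kinase gene Dck at 14.3 ± 0.534 and 10.2 ± 2.61 (0.0715). Neither was called. The groups did not overlap in any of the 3 genes, all lower with SAG, beside 26.8% of all tested genes lower without overlap.

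Regulators of the step into S phase, chosen in the same way, also went both ways. Cdkn1b, the Cdk inhibitor p27, rose 1.46-fold, from 32.8 ± 0.939 to 47.9 ± 1.02 (limma BH-adjusted p = 0.0049), while Cdkn1a, the inhibitor p21, fell 1.52-fold, from 486 ± 12.5 to 320.0 ± 37.0 (0.00291). Of the D cyclin genes, Ccnd1 and Ccnd2 fell, Ccnd1 from 32.7 ± 2.34 to 15 ± 1.11 (limma BH-adjusted p = 0.000367) and Ccnd2 from 908 ± 21.7 to 469.9 ± 5.93 (9.5e-05). Ccnd3, cyclin D3, rose 1.23-fold, from 180.5 ± 7.60 to 221 ± 5.18 (0.0343).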
